A study of Mus musculus with 20 samples.

Results

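The nuclear-encoded subunits of the mitochondrial respiratory chain were examined in RiboTag libraries of Py8119 mammary tumors. They were chosen by gene name: Nduf followed by a, b, c, s or v and a digit for complex I, Sdha to Sdhd for complex II, Uqcr for complex III, Cox4 to Cox8 followed by the letter a, b or c for complex IV and Atp5 for complex V. This gave 88 of the 55866 genes in the count table, 42 in complex I, 4 in complex II, 8 in complex III, 17 in complex IV and 17 in complex V, after 14 names containing -ps (pseudogene copies with 430 counts together over all libraries) were left out. The rule used names only and no measured value. It misses Cox4i1, Cox4i2, Cyc1, Cycs and Ndufab1, and it places Ndufa4, now known as a subunit of complex IV, in complex I.

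Complexes I and II feed electrons from NADH and succinate into the chain, complex III passes them to cytochrome c, and complex IV hands them to oxygen. Complexes I, III and IV pump protons across the inner mitochondrial membrane, and complex V, the ATP synthase, uses the returning protons to make ATP. Most subunits are encoded in the nucleus and translated on cytosolic ribosomes, while a small set is encoded by mitochondrial DNA, and endothelial cells are known for drawing much of their ATP from glycolysis.

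The mice were female C57BL/6J animals of the genotype Rpl22HA/HA x Cdh5CreERT2, in which tamoxifen (75 mg/kg for 5 days from 3 weeks of age) switches on an HA-tagged Rpl22, a protein of the large ribosomal subunit, in cells with Cdh5-driven Cre, that is, endothelial cells of the host. Py8119 murine breast carcinoma cells, which carry no tag, were implanted in the mammary fat pad at 8 weeks, and 25 mg/kg of the anti-Notch4 antibody 6-3-A6 or control mouse IgG was injected 2 times a week for 10 days, from a tumor volume given as 30 mm3 in the protocol and 50 mm3 in the design text. From each of 10 tumors, 5 per treatment, the whole homogenate (input) and the anti-HA immunoprecipitate (IP) were sequenced, which gave 20 libraries with 11881214 to 26728205 counts on genes. The study's own comparison of the treatments kept 6 IP libraries, control IgG 2, 4 and 5 and 6-3-A6 1, 3 and 4. The descriptions of the 6-3-A6 samples name the opposite fraction to their titles, and the titles were followed. By the titles all 17 endothelial markers tested were higher in IP (median log2 fold change 4.36, without overlap between the fractions for 17), and 8 of 12 macrophage markers were lower. Macrophage markers still summed to a mean of 5695 CPM in IP (10021 in input), beside 4707 CPM (279 in input) for endothelial markers. Fibroblast markers went both ways, from Thy1 (−0.95) to Col3a1 (0.32). Of the mural markers Kcnj8 (3.78) and Abcc9 (2.43) were higher in IP and the others were not called.

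Levels are given as CPM, the count of a gene scaled to the library total after TMM correction, and differences as log2 fold changes from edgeR's quasi-likelihood test across all genes, called at a Benjamini-Hochberg adjusted p under 0.05. Of the 88 genes, 77 passed the filter on low counts in the comparison of the fractions. Ndufa13, Cox6a2, Ndufb4c, Ndufs6b and Ndufb11b had 0 counts in all 20 libraries, and a count of 0 in a library allows for up to 3 counts. Ndufa13, Cox6a2, Ndufb4c and Ndufs6b lie wholly within the spans of other genes, so a 0 says nothing of their expression. Ndufa11b (3 counts over all libraries), Cox8c (1), Cox8b (22), Cox7b2 (43), Cox6c2 (50) and Cox6b2 (97), among them subunit forms known from heart, muscle or testis, were near 0 and were not tested.

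Per kilobase of mRNA, the highest mean input level was that of Atp5h, a stalk subunit of the ATP synthase, at 398 CPM per kilobase ± 92.5 (SD, n = 10). The matched Atp5h transcript has 486 nt, 483 of them coding, so its level per kilobase and its place are uncertain in both fractions. Uqcrh, the hinge protein of complex III, followed at 368 ± 94.9, then Uqcrb, another complex III subunit, at 317 ± 223, a mean and spread raised by 6-3-A6 input 4 at 921. The place of Uqcrb in this order rests on that library. Atp5b, the catalytic beta subunit, stood at 268 ± 46.9. In IP the order on the same scale began with Atp5b at 334 ± 49.6, Atp5h at 316 ± 75.2 and Uqcrh at 259 (from 153 to 434). In both fractions the ranges mean ± SD of neighbors in these orders overlapped.

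Comparing IP with input asks how the endothelial ribosome-bound mRNA differs from the mRNA of the whole tumor. Of the 77 genes, 4 were higher in IP (Ndufs1, Sdha, Uqcrc1 and Uqcrc2) and 21 were lower, against 19.8% higher and 21.4% lower (41.2% together) among all 13582 genes tested. The median log2 fold change of the respiratory chain genes was −0.36, with 66 below 0, against −0.05 for all genes. With 1 tumor left out it ran from −0.42 to −0.22, the latter without 6-3-A6 tumor 5, which also took the median of complex I to −0.19 and that of complex II to −0.03. None of the 77 separated the 10 IP from the 10 input libraries without overlap, which 4.97% of all genes did. In bulk libraries of this kind, fewer cells that express a gene and less of its mRNA per cell cannot be told apart. Some calls depended on the setting, among them those of genes described below. In the 6 tumors whose IP the study kept Uqcrc1 (0.65, adjusted p = 0.0509), Uqcrc2, Cox7c, Atp5c1, Atp5j2, Atp5e and Ndufb10 were not called, and with library totals alone Atp5c1 (−0.21, adjusted p = 0.177), Atp5e, Atp5j2, Cox7a1, Cox7c, Ndufb10 and Uqcrh were not called (edgeR). The share of all genes called was 24.4% in those 6 tumors and 40% with library totals alone, against 41.2% above. With the tumor as a block, which pairs the fractions of one homogenate, 5 were higher and 33 lower, and all 25 calls made without the block were among them, while the share called among all genes rose to 52.4%. With library totals alone in place of TMM factors 7 were higher and 12 lower, so that 36.8% rather than 16.0% of the calls were higher, while the median of all genes moved to 0.13.

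**Figure D1:**
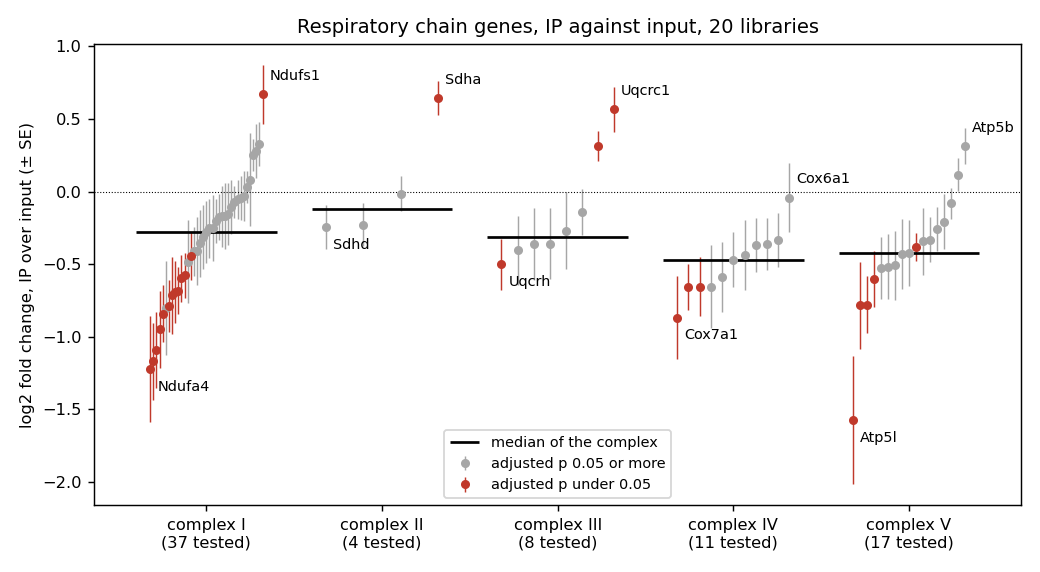
Log2 fold change of IP over input (vertical axis) for each of the 77 tested genes, ordered within the 5 complexes (horizontal axis), with bars for ± 1 SE from the edgeR fit over 20 libraries and a black line at the median of each complex. Red points mark calls at an adjusted p under 0.05, of which 4 lie above 0 and 21 below, from 0.67 for Ndufs1 to −1.58 for Atp5l.

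Core and accessory subunits were counted apart, with Uqcrc1 and Uqcrc2, known as core proteins of complex III, placed among the accessory ones. No gene of complex IV was placed in the core. The 20 core subunits (the nuclear core of complex I, complex II, the Rieske protein Uqcrfs1 and the F1 and c subunits of complex V) had 2 higher, 2 lower and a median of −0.19. The 57 accessory subunits tested had 2 higher (Uqcrc1 and Uqcrc2), 19 lower and a median of −0.41. Within complex I the 7 core subunits had a median of −0.03 with 1 higher and 0 lower, and the 30 accessory subunits a median of −0.41 with 0 higher and 12 lower. The difference between these classes was not tested, and they also differ in coding length, described below.

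Complex I had 1 gene higher and 12 lower of 37, with a median of −0.28, and with the tumor as a block Ndufa9 was also called higher and Ndufb4 and Ndufb5 lower. Ndufs1, which carries iron-sulfur clusters of the electron path (chr1:63182755-63215992, minus strand, GRCm39), had input levels of 11.9, 22.6, 18.6, 26.1 and 23.6 CPM in control IgG and 16.0, 25.2, 18.7, 21.4 and 15.5 CPM in 6-3-A6 tumors. Its IP levels were 14.1, 31.2, 28.0, 26.1 and 48.1 CPM in control IgG and 22.1, 56.4, 26.3, 37.2 and 28.5 CPM in 6-3-A6 tumors. IP exceeded input in 10 of 10 tumors although the groups overlapped, and the log2 fold change was 0.67 ± 0.20 (SE, adjusted p = 0.0119, edgeR). Other genes cover 44.5% of the Ndufs1 span, so its count rests on part of the gene. Ndufv1, a further core subunit of the NADH-oxidizing arm, was at 0.33 (adjusted p = 0.0831, edgeR).

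The 12 lower genes of complex I were all accessory subunits. Among them other genes cover 62.9% of the Ndufb9 span, 38.6% of Ndufb2 and 12.0% of Ndufb1. Ndufa4 had input levels of 86.0, 75.9, 45.4, 44.0 and 42.9 CPM in control IgG and 44.1, 40.2, 52.0, 347 and 73.2 CPM in 6-3-A6 tumors. Its IP levels were 68.1, 33.7, 22.7, 41.2 and 26.7 CPM in control IgG and 26.2, 24.6, 29.4, 45.9 and 29.7 CPM in 6-3-A6 tumors. IP lay below input in every tumor, and the value of 347 CPM in 6-3-A6 input 4 stood far above all other libraries. The log2 fold change was −1.22 ± 0.37 (SE, adjusted p = 0.0111, edgeR) with all libraries and −0.57 without 6-3-A6 inputs 4 and 5. Ndufs5, at the low level of 2.81 to 7.67 CPM in input and 0.875 to 4.47 CPM in IP, fell by 1.17 on the log2 scale and was lower in IP in all 10 tumors. Ndufc1 fell by 1.09, and Ndufb10, the called gene nearest to 0, fell by 0.45, a call lost without control IgG tumor 2 or 3 or 6-3-A6 tumor 3, 4 or 5, where it ran from −0.46 to −0.36 (adjusted p of 0.052 to 0.10, edgeR). Ndufa4l2, the hypoxia-linked paralog of Ndufa4, ranged from 0.896 to 3.23 CPM in input and from 0.747 to 3.94 CPM in IP (0.08, adjusted p = 0.854, edgeR).

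Complex II, the succinate dehydrogenase that also serves the citric acid cycle, had the member with the lowest adjusted p of all 77. Sdha, its flavoprotein (chr13:74470373-74498399, minus strand, GRCm39), had input levels of 131, 153, 156, 171 and 165 CPM in control IgG and 142, 179, 182, 141 and 132 CPM in 6-3-A6 tumors. The IP levels were 209, 265, 253, 181 and 289 CPM in control IgG and 201, 333, 210, 247 and 238 CPM in 6-3-A6 tumors. All 10 tumors had more in IP, and the 2 fractions overlapped only in that control IgG IP 4 (181 CPM) lay just under 6-3-A6 input 3 (182 CPM). Sdha rose by 0.64 ± 0.12 on the log2 scale (SE, 1.56 times, adjusted p = 0.000164, edgeR). The iron-sulfur subunit Sdhb was at −0.01 and the membrane anchors Sdhc and Sdhd at −0.23 and −0.25, none of them called, with Sdhc at −0.14 without 6-3-A6 tumor 5. With the tumor as a block Sdhd was called lower (−0.26, adjusted p = 0.0304, edgeR).

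Complex III had 2 genes higher and 1 lower of 8, with a median of −0.31 that ran from −0.43 to −0.11 (without 6-3-A6 tumor 5; −0.20 without control IgG tumor 2) when 1 tumor was left out. Uqcrc1, a large matrix subunit (chr9:108765701-108778691, plus strand, GRCm39), had input levels of 60.5, 72.8, 64.5, 66.0 and 60.9 CPM in control IgG and 53.9, 62.7, 68.9, 25.3 and 84.7 CPM in 6-3-A6 tumors. In IP the levels were 96.0, 91.4, 86.2, 65.5 and 93.3 CPM in control IgG and 80.7, 105, 89.4, 122 and 89.5 CPM in 6-3-A6 tumors. IP exceeded input in 9 of 10 tumors, and the log2 fold change was 0.57 ± 0.15 (SE, adjusted p = 0.00581, edgeR). Its partner Uqcrc2 rose by 0.31 on the log2 scale, from a median of 70.9 to 82.2 CPM, and lost the call without 6-3-A6 tumor 2 (0.28, adjusted p = 0.052, edgeR). Uqcrh fell by 0.50, a call lost without control IgG tumor 2 (−0.45, adjusted p = 0.074), without 6-3-A6 tumor 3 (−0.48, 0.058) or without 6-3-A6 tumor 5 (−0.46, 0.053, all edgeR). Uqcrfs1, the Rieske iron-sulfur protein, was at −0.14 (adjusted p = 0.492, edgeR) and at −0.066 without 6-3-A6 tumor 5.

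Complex IV had 0 genes higher and 3 lower of 11, with a median of −0.47 and no gene above 0. Cox7a2l, a supercomplex assembly factor by its known role, ran from 114 to 211 CPM in input (median 161) and from 60.4 to 156 CPM in IP (median 105). It fell by 0.66 on the log2 scale (SE 0.16, adjusted p = 0.0027, edgeR) and was lower in IP in 9 of 10 tumors. Cox7c fell by 0.65 and was lower in IP in all 10. Cox7a1, the form known from heart and skeletal muscle, was at a low level, 0.43 to 1.05 CPM in input and 0.219 to 0.879 CPM in IP, and fell by 0.87, a call lost without control IgG tumor 2 (−0.76, adjusted p = 0.058) or tumor 3 (−0.76, 0.053, both edgeR). It passed the filter in 7 of the 10 fits that left out 1 tumor and was not tested in the others. Its widely expressed counterpart Cox7a2 (55.2 to 129 CPM in input, 35.4 to 99.6 CPM in IP) was at −0.33, and Cox6a1 at −0.04, Cox8a at −0.65, Cox6b1 at −0.37, Cox7b at −0.47, Cox6c at −0.59 and Cox5a at −0.44 did not pass the test. Without 6-3-A6 tumor 5 Cox8a was at −0.40 and Cox5a at −0.28, and without 6-3-A6 tumor 4 Cox6c was at −0.36. Other genes cover 43.2% of the Cox6c span. The block of tumors moved complex IV most, to 9 lower of 11 by adding Cox5a, Cox5b, Cox6b1, Cox6c, Cox7a2 and Cox7b. The 10 skeletal muscle markers summed to 2.99 to 48.8 CPM in input and 3.44 to 13.8 CPM in IP, and 2 of 6 tested were lower in IP, whose part in the Cox7a1 value was not tested.

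Complex V had 0 genes higher and 5 lower of 17, with a median of −0.43, and 8 lower with the tumor as a block, which added Atp5h, Atp5k and Atp5mpl. Atp5l, the g subunit of the membrane part (chr9:44823855-44832040, minus strand, GRCm39), had input levels of 2.52, 2.04, 1.88, 2.71 and 2.81 CPM in control IgG and 1.81, 1.42, 1.97, 14.3 and 3.23 CPM in 6-3-A6 tumors. Its IP levels were 0.544, 1.21, 0.328, 1.83 and 2.05 CPM in control IgG and 0.879, 0.422, 1.01, 0.524 and 2.10 CPM in 6-3-A6 tumors. It was lower in IP in all 10 tumors, by 1.58 ± 0.44 on the log2 scale (SE, adjusted p = 0.0073, edgeR) and by 0.90 without 6-3-A6 inputs 4 and 5. Copies named Atp5l-ps1 and Atp5l-ps2 are in the table and the treatment of reads with several matches is not given in the sources used here, so the low count of Atp5l is uncertain, as is that of Ndufs5. The F1 subunits Atp5a1 and Atp5b, the alpha and beta subunits that hold the catalytic sites, were at 0.12 and 0.31 (adjusted p = 0.409 and 0.0507, edgeR). Atp5a1 was at 0.041 without 6-3-A6 tumor 2, and Atp5b was called higher with DESeq2 (0.33, adjusted p = 0.0182) and with library totals alone (0.48, adjusted p = 0.0202, edgeR). Atp5c1, the central stalk, fell by 0.38 (−0.31, adjusted p = 0.0875, without the filter on low counts, edgeR) and Atp5e, the smallest F1 subunit, by 0.78. Atp5e lost its call in 7 of the 10 fits that left out 1 tumor, lowest without 6-3-A6 tumor 5 (−0.50, adjusted p = 0.15, edgeR). Atp5md and Atp5j2, membrane subunits, fell by 0.78 and 0.60, and Atp5j2 lost its call without control IgG tumor 2 (−0.50, adjusted p = 0.061, edgeR). Among the known regulators, Atpif1, the inhibitor of the ATP synthase, fell by 1.19 on the log2 scale. Its input levels ran from 55.5 to 402 CPM (median 86.7), highest in 6-3-A6 input 4, and its IP levels from 35.4 to 84.8 CPM. Within control IgG tumors, without that library in the contrast, Atpif1 was at −0.71 (adjusted p = 0.292, edgeR).

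The fold changes were set against coding length. The coding sequence of the 76 tested genes with a matched transcript ran from 156 to 2181 nt, with a median of 405 nt. The 21 genes under 300 nt had a median log2 fold change of −0.52 with 0 higher and 9 lower, and the 35 genes from 300 to under 600 nt a median of −0.41 with 0 higher and 10 lower. The 11 genes from 600 to under 1200 nt had a median of −0.14 with 1 lower, and the 9 genes of 1200 nt or more a median of 0.31, with 4 higher, 0 lower and 8 above 0. Among all genes tested the same 4 classes had medians of −0.49, −0.33, −0.15 and 0.12. Spearman's correlation between coding length and log2 fold change was 0.65 over the 76 genes and 0.325 over 12354 genes, as a description across genes that share libraries and are not independent replicates. The length classes of all genes ran in the same order as those of the respiratory chain. By complex it was 0.594 in I, 0.227 in IV and 0.788 in V. Spearman's correlation of the fold change with the mean level was 0.366 over the 76 genes and 0.784 in complex V, so that there length and level cannot be told apart, and with GC content of the transcript it was 0.05.

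**Figure D2:**
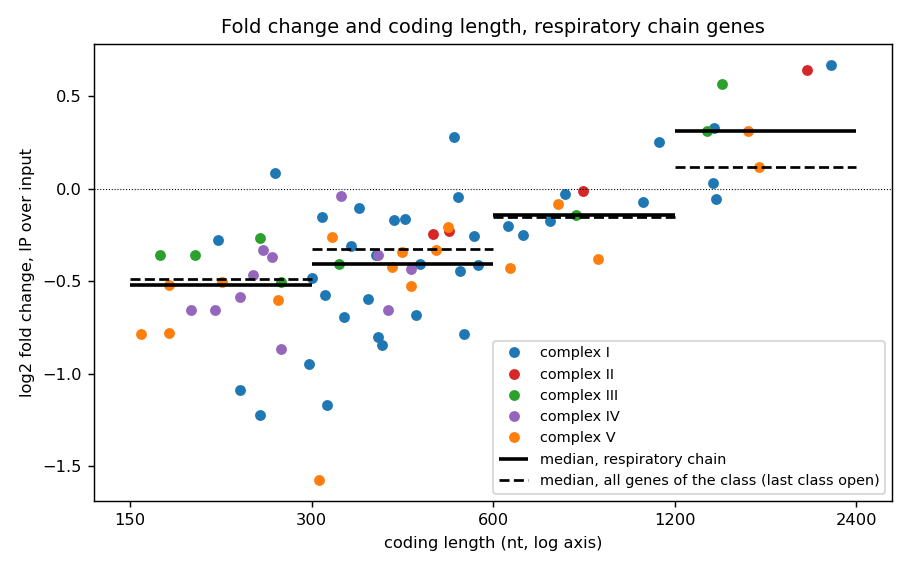
Log2 fold change of IP over input (vertical axis) against coding length in nt (horizontal log axis) for the 76 tested genes with a matched transcript, colored by complex, with the medians of the respiratory chain (solid) and of all genes (dashed) in 4 length classes drawn as lines. All 4 called higher genes lie at 1200 nt or more, and the medians of all genes rise from −0.49 to 0.12.

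Long and short subunits also parted from library to library within a fraction. Relative to each gene's mean over 20 libraries on the log2 scale, the median of the 9 long genes minus that of the 21 short genes stood at −0.99 in control IgG input 1, −1.10 in 6-3-A6 input 5 and 1.20 in 6-3-A6 IP 2. In the same libraries 7381 other long genes minus 199 other short genes stood at −0.79, −0.88 and 0.87. Genes outside the respiratory chain ran the same way in these 3 libraries, but not in 6-3-A6 IP 4 (0.39 against −0.03) or control IgG input 5 (−0.09 against 0.07), and the part of length in the differences between the fractions was not tested. RNA integrity was not analysed here.

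Tumor by tumor, the mean log2 CPM of the tested genes in IP minus input was −0.31 ± 0.35 (SD, n = 10) and lay below 0 in 9 of 10 tumors. By tumor it was −0.00, −0.81, −0.30, −0.02 and −0.51 in control IgG and −0.25, −0.26, −0.19, 0.14 and −0.94 in 6-3-A6. Tumors 1 and 4 of control IgG were near 0, and 6-3-A6 tumor 4, whose input stands apart, was the tumor above 0. The endothelial score of the IP, defined below, was lowest in control IgG tumor 4 (−0.47) and 6-3-A6 tumor 2 (−0.16). In the other tumors the score ran from 0.59 to 2.87, and its part in these differences was not tested. The 9 long genes were above 0 in 10 of 10 tumors, from 0.01 to 0.98, and the genes under 300 nt below 0 in 9 of 10. Complex II was the complex with a mean above 0 (0.04 ± 0.23, SD), above 0 in 6 of 10 tumors, and complex IV had the lowest mean (−0.46 ± 0.44, SD).

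**Figure D3:**
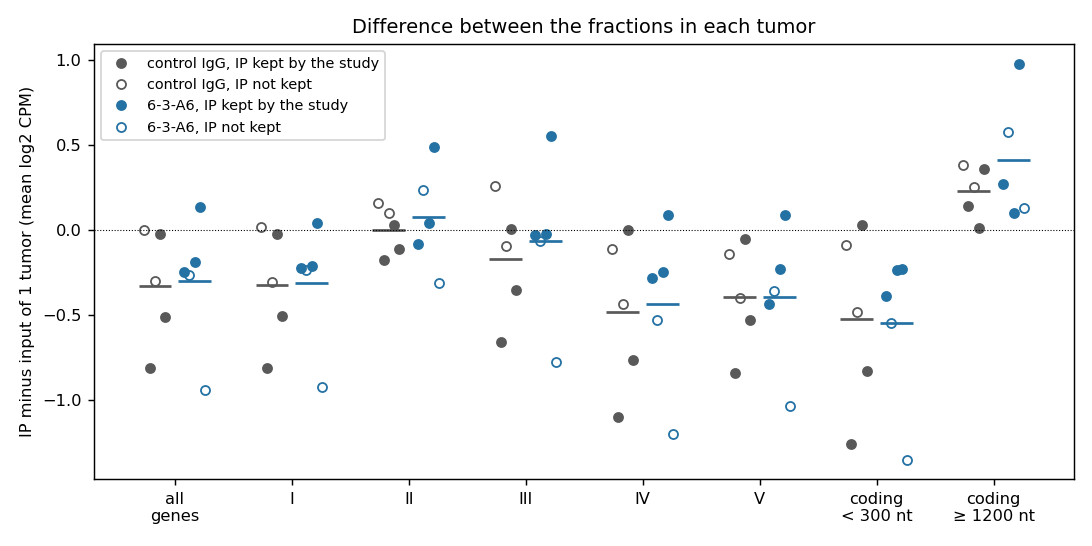
IP minus input in mean log2 CPM (vertical axis) for each of the 10 tumors, given for all tested genes, the 5 complexes and genes with coding sequences under 300 nt or of 1200 nt or more, with gray points for control IgG, blue for 6-3-A6, filled points for tumors whose IP the study kept and a bar at the mean of each treatment. The long genes lie above 0 in 10 of 10 tumors and the short genes below 0 in 9 of 10.

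The library 6-3-A6 input 4 stood apart from the other 19. The log2 CPM of the respiratory chain genes minus their median in the other 9 inputs had an SD of 1.05 there, against 0.19 to 0.49 in each other library set against its own fraction, and its TMM factor was 0.665. Of the genes tested, 9 had their highest and 21 their lowest level of all 20 libraries in it. The highest included Ndufa4 (347 CPM), Uqcrb (493 CPM, where the other libraries ran from 88.7 to 221 CPM) and Atp5l, and the lowest included Uqcrc1 (25.3 CPM) and Cox8a (25.8 CPM). The median GC content of the transcripts was 50.4% for the 9 and 55.8% for the 21, and Spearman's correlation of the deviation with GC content was −0.53 over 76 genes and −0.59 over 12278 other genes. The same module had its highest mean log2 CPM in 6-3-A6 input 5 (6.29, where the other inputs ran from 5.35 to 6.06). Without both inputs, a choice made after seeing the data, IP against input gave 5 higher, 18 lower and a median of −0.21 (all genes −0.01, with 42.3% of them called), and Atp5e, Ndufb10 and Uqcrh lost their calls.

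**Figure D4:**
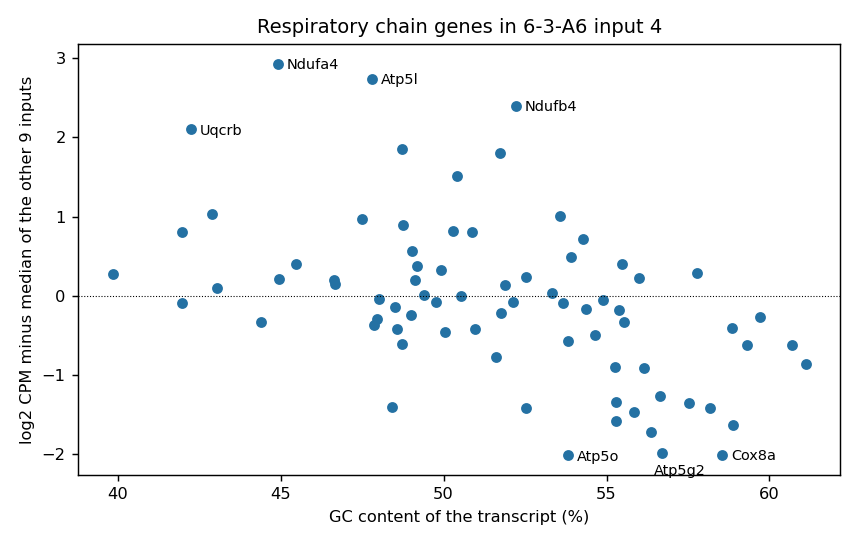
Log2 CPM in 6-3-A6 input 4 minus the median of the other 9 inputs (vertical axis) against the GC content of the transcript in percent (horizontal axis), 1 point for each of 76 respiratory chain genes. The points fall from the upper left, with Ndufa4 at 2.93, to the lower right, with Atp5o at −2.01, a gene with 97.3% of its span covered by other genes.

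The comparison of the fractions was repeated within each treatment, in a model of the 4 groups. In control IgG tumors 1 gene was higher and 0 were lower (background 8.28% and 3.1%, 11.4% together, of 14488 genes), with a median of −0.33 (from −0.45 to −0.16, the latter without control IgG tumor 2, with 1 tumor left out) and 14 genes at an unadjusted p under 0.05 (26.3% of all genes). The called gene was Sdha (0.63 ± 0.17, SE, adjusted p = 0.0188, edgeR), and the call was lost without tumor 1, 2, 3 or 5 (adjusted p of 0.059 to 0.11). With DESeq2 1 was higher and 2 were lower (15.5% of all genes called), and with the tumor as a block 1 was higher and 10 were lower (22.4% of all genes called). In 6-3-A6 tumors 4 were higher and 14 lower (background 12.8% and 13.5%, 26.3% together), with a median of −0.36 (from −0.47 to −0.08, the latter without tumor 5, with 1 tumor left out), and with the tumor as a block 4 were higher and 21 lower (38.3% of all genes called). These were the same 4 genes as over both treatments, Ndufs1 (0.83), Uqcrc1 (0.73), Sdha (0.67) and Uqcrc2 (0.45), and the lowest were Atp5l (−2.13), Ndufa4 (−1.81), Ndufs5 (−1.41) and Ndufc1 (−1.41), with Cox7a2l at −0.74. Ndufs1 lost this call in 7 of the 10 fits that left out 1 tumor (lowest 0.69 without 6-3-A6 tumor 2, adjusted p = 0.099), and Uqcrc2 without 6-3-A6 tumor 1, 2 or 4 (lowest 0.32, adjusted p = 0.12, edgeR). Without tumor 4 Atp5l was at −0.87 (adjusted p = 0.21, edgeR), while Ndufa4 at −0.89 and Uqcrc1 at 0.47 kept their calls. Without inputs 4 and 5 Ndufa4 was at −0.52 (adjusted p = 0.23) and Ndufs5 at −1.07 (adjusted p = 0.053, edgeR), and without inputs 4 and 5 the counts were 2 higher and 1 lower with a median of −0.07, where 22.1% of all genes were called. In the tumors whose IP the study kept, the median within 6-3-A6 was −0.05 against −0.07 for all genes, and within control IgG −0.52 against −0.03. There Sdha was not called within 6-3-A6 (0.52, adjusted p = 0.104) or within control IgG (0.59, adjusted p = 0.21, both edgeR). Ndufs1 and Uqcrc2 were not called within 6-3-A6 in these tumors either. A direct test of the difference between the treatments called 0 of 77 genes (edgeR), with 0 at an unadjusted p under 0.05, 0 with DESeq2 and 0.863% of 14488 genes at that p. The 2 genes of lowest p in it were Ndufa4 (−1.20) and Ndufb4 (−0.91), which became 0.06 and 0.21 without inputs 4 and 5.

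Treatment with 6-3-A6 was compared with control IgG in the whole tumor first. In input 0 of 77 genes were called by edgeR or DESeq2, 0 had an unadjusted p under 0.05, and the median was −0.03 (background 0% of 13683 genes, 1.32% of them at an unadjusted p under 0.05). By complex the medians were −0.04 in I, −0.03 in II, −0.08 in III, −0.01 in IV and 0.00 in V. With 1 tumor left out the median over the 77 genes ran from −0.17 (without 6-3-A6 tumor 5) to 0.08 (without control IgG tumor 1), and each complex took both signs. The mean log2 CPM was 5.67 ± 0.32 in control IgG and 5.64 ± 0.38 in 6-3-A6 input (SD, n = 5 each), and the groups overlapped. The lowest p values were those of Uqcrb (0.67) and Ndufa4 (0.87), which turned to −0.17 and −0.36 without inputs 4 and 5, where the median was −0.22 and 2 genes had an unadjusted p under 0.05.

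In the 6 IP libraries that the study kept, 0 of 76 genes were called, where 4.61% of 13999 genes were, 2.57% higher and 2.04% lower (edgeR). DESeq2 also gave 0 for the respiratory chain, where it called 8.87% of all genes. Limma voom with sample quality weights called 2 genes of complex I higher, where it called 13.4% of all genes. The median was 0.21 against −0.05 for all genes, and 65 of 76 were above 0. Leaving out 1 library moved this median from 0.05 (without control IgG 5) to 0.42 (without control IgG 4), with 0.08 without 6-3-A6 4 and 0.36 without 6-3-A6 1. By complex the medians were 0.21 in I, 0.18 in II, 0.29 in III, 0.29 in IV and 0.18 in V, with all 8 tested genes of III and all 10 of IV above 0. With 1 library left out these ran from 0.02 to 0.37 in I, 0.01 to 0.29 in II, 0.16 to 0.45 in III, 0.06 to 0.54 in IV and 0.0021 to 0.37 in V. An unadjusted p under 0.05 was found for 5 genes, against 19.5% of all genes. Ndufv3, an accessory subunit beside the NADH-binding site, was at 50.8, 52.6 and 40.6 CPM in control IgG and 69.0, 83.5 and 65.2 CPM in 6-3-A6 (log2 fold change 0.57 ± 0.19, SE, adjusted p = 0.117, edgeR, and 0.63, adjusted p = 0.0206, with limma voom). Cox6a1, the widely expressed form of subunit 6a, was at 51.4, 56.7 and 35.2 CPM in control IgG and 62.1, 72.3 and 92.0 CPM in 6-3-A6 (0.64 ± 0.23, SE, adjusted p = 0.15, edgeR). In both genes the 3 treated libraries lay above the 3 controls, as did 13.6% of all genes. Ndufc2 (0.56), Ndufa8 (0.58) and Atp5l (−1.09) were the other genes at an unadjusted p under 0.05, and Ndufa4l2 stood at 1.03 (adjusted p = 0.26, edgeR).

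Values that moved with the kept comparison stand beside it. The endothelial score, the mean log2 CPM of endothelial markers minus that of macrophage, fibroblast and epithelial markers, was 0.31 ± 0.68 in the control IgG and 2.39 ± 0.10 in the 6-3-A6 libraries kept (SD, n = 3 each), without overlap, and 5 of 17 endothelial markers were called higher and 6 of 12 macrophage markers lower. Of 4 erythroid markers 3 were called higher. Macrophage markers summed to 6746 to 7818 CPM in control IgG and 3287 to 3991 CPM in 6-3-A6, fibroblast markers to 1625 to 3362 and 748 to 1592 CPM, and epithelial markers to 318 to 386 and 168 to 232 CPM, all without overlap. The coding length classes of all genes had medians of 0.19, 0.13, 0.03 and −0.11 from the shortest to the longest, and those of the respiratory chain 0.36, 0.22, 0.10 and 0.03. Their part in the respiratory chain values was not tested, and treatment and endothelial content of these 6 libraries cannot be told apart. With the endothelial score as a covariate the median of the respiratory chain was 0.76 and that of complex IV 1.11, against −0.07 for all genes, with 0 calls in the chain. In all 10 IP libraries 0 of 76 genes were called by edgeR or DESeq2, 0 had an unadjusted p under 0.05 and the median was −0.07 (background 0% of 13602 genes, 2.15% at an unadjusted p under 0.05), with the lowest p for Uqcrc2 (0.21, and 0.12 without 6-3-A6 tumor 4) and Atp5o (−0.28, and −0.14 without 6-3-A6 tumor 5). Other genes cover 97.3% of the Atp5o span, so its count rests on a small part of the gene. Both comparisons of IP share 6 libraries. By complex the medians over all 10 were −0.06 in I, −0.02 in II, −0.04 in III, −0.07 in IV and −0.10 in V. The direction of these medians rested on single tumors, since the median over the 76 genes ran from −0.18 (without control IgG tumor 5) to 0.15 (without control IgG tumor 1) and that of each complex took both signs, in IV from −0.20 to 0.20.

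**Figure D5:**
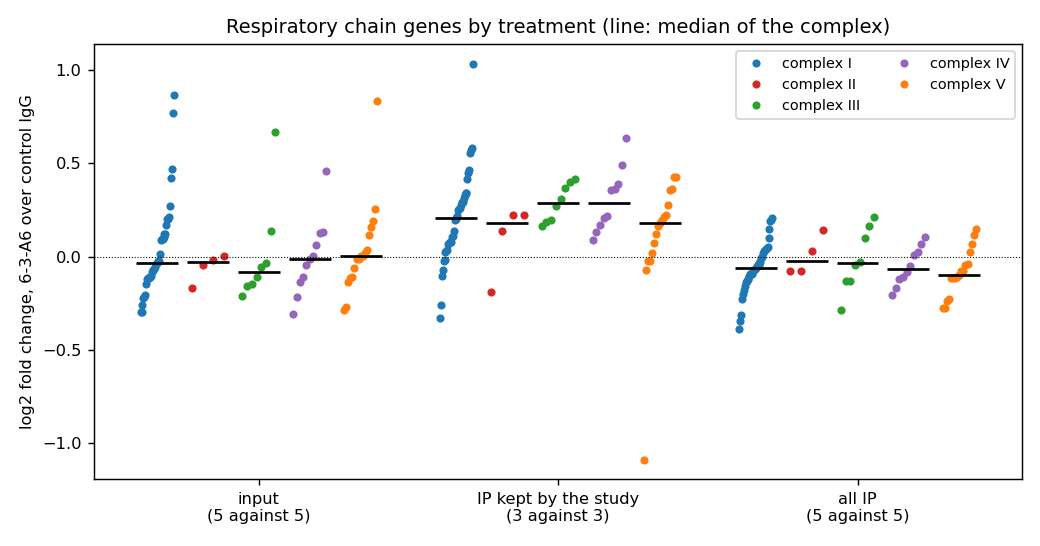
Log2 fold change of 6-3-A6 over control IgG (vertical axis) by complex for each tested gene, colored by complex, in input (77 genes), in the 6 kept IP libraries (76) and in all IP libraries (76), with a bar at the median of each complex. The medians lie at −0.03, 0.21 and −0.07 over all genes of the chain, and edgeR called 0 genes in any of the 3 comparisons.

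The genes that the name rule leaves out gave the following counts in IP against input, from lists drawn up with earlier results of these data known, to be read against the 19.8% higher and 21.4% lower among all genes. Of 6 tested chain genes outside the rule 2 were lower, Cox4i2 (−1.05), the hypoxia-linked form of subunit 4, and Dmac2l (−0.58), and Cox4i1 stood at −0.45, Cycs at −0.34 and Cyc1 at −0.01. Of 40 assembly factors 1 was higher (Acad9, 0.61) and 11 were lower, among them Uqcc2 (−1.03) and Ndufaf2 (−0.95), (27.5%), with a median of −0.21. Of 12 regulators of mitochondrial biogenesis 3 were higher (25.0%) and 0 lower, namely Gabpa (0.59) and Gabpb1 (0.52), the subunits of the ETS factor GABP, and Polrmt (0.63), the mitochondrial RNA polymerase. Gabpa and Atp5j overlap in the genome, since Gabpa covers 9.03% of the Atp5j span. Of the subunits encoded by mitochondrial DNA, which are translated on mitochondrial ribosomes without Rpl22, 7 of 13 were tested and all 7 were lower, with a median of −2.50. Mitochondrial ribosomal proteins had 1 higher and 21 lower of 72 (29.2% lower, median −0.25), and cytosolic ribosomal proteins, which are also short, had 0 higher and 64 lower of 76 (median −0.74).

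Promoters were searched for motifs of NRF1, of ETS factors such as GABP and of YY1, which are known to act on respiratory chain genes. RefSeq windows from 250 bases before to 50 after the start (GRCm38.p6) were found for 69 of the 88 genes. The ETS letters CCGGAAG stood on either strand in 17 (24.6%) of them and in 9.93% of 27025 gene promoters, the YY1 letters AAGATGGC in 10 (14.5%) and 3.19%, and the NRF1 motif in its palindromic form in 5 (7.25%) and 1.07%. Any of the 3 stood in 29 of the 69 (42.0%) and in 13.4% of all promoters, as a description with no test. Of the 19 promoters of genes lower in IP 4 held the ETS letters, 3 the YY1 letters and 0 the NRF1 motif, and of the 2 promoters of genes higher in IP 1 (Uqcrc1) held the NRF1 motif. The 150 bases before the start are shown for Sdha, the most clearly higher gene, without a match, for Atp5e and Uqcrh, both lower, with the ETS letters 102 and 10 bases before the start, and for 1 of 2 starts listed for Atp5j, beside Gabpa, with the ETS letters 61 and the YY1 letters 88 bases before it. The other Atp5j start had no match in the 150 bases before it. Capitals mark the letters matched, on the strand given, and the genes and the Atp5j start were picked after the matches were seen. Ndufs1 and Uqcrc2, the other genes higher in IP, had no promoter window matched by symbol.
Sdha, chr13:74350241-74350390, minus strand: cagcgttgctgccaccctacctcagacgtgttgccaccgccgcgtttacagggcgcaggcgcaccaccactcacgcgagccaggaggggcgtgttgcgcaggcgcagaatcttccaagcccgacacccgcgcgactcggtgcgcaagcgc
Atp5e, chr2:174464102-174464251, minus strand: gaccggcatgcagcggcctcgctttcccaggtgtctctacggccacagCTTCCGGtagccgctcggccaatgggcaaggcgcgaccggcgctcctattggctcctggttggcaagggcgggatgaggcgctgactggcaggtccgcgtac
Uqcrh, chr4:116075071-116075220, minus strand: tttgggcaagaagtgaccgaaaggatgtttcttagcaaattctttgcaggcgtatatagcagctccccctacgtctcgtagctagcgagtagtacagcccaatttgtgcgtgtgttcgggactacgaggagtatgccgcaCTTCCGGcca
Atp5j, chr16:84834977-84835126, minus strand: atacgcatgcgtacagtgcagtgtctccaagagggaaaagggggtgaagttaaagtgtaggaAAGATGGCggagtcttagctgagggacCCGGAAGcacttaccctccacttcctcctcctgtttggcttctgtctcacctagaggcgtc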

How the data were processed

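RNA of 10 Py8119 tumors was sequenced as input and anti-HA immunoprecipitate (NovaSeq, single reads of 100 bases). The authors deposited 1 table of raw read counts per gene, counted with featureCounts over whole gene spans after alignment with STAR 2.7.4a. The submitters' processing notes name featureCounts 1.5.2 and 2.0.1, and the builds mm10 and GRCh38, while the coordinates in the table are GRCm39. Strand setting and treatment of reads with several matches are not given in the sources used here. A second table deposited by the authors holds fold changes and p-values of their DESeq2 comparison, which were not used, and size-factor-normalized counts (signal), used to learn which 6 IP libraries were kept.

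Samples were grouped by their titles. The counts as deposited were fitted with edgeR 4.0.16 (glmQLFit and glmQLFTest, TMM factors, filterByExpr) in R 4.3.3 across all genes, with Benjamini-Hochberg adjustment at 0.05. IP against input used all 20 libraries with treatment as a term, the comparisons within treatments and the interaction used the 4 groups, and the treatments were compared in input, in the kept IP libraries and in all IP libraries. DESeq2 1.42.0 and limma 3.58.1 served as alternatives. Log2 CPM used a prior count of 2. Totals ran from 11881214 to 26728205 counts (median 16942643), and the floor of 3 counts covers counting error only. SDs are across libraries or tumors, and SEs come from the fits, which estimate the spread between libraries. None of the 40 pairs of libraries of the same group agreed within sampling noise. The scripts were tested on simulated data.

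Input and IP of 1 tumor come from the same homogenate, so they are paired: their deviations from the group means correlated with −0.06 to 0.73, and the block of tumors is given beside the counts of calls it moved. Coding length and GC content come from GENCODE M21 and promoters from RefSeq, both on GRCm38, matched by symbol, with 82 of 88 genes matched to a coding transcript. Named genes were the 2 highest and 2 lowest called per complex, the called genes or the 2 of lowest p in the other comparisons, core subunits and genes with a tissue-restricted or hypoxia-linked paralog, and others such as Ndufb10, Atp5c1, Atp5j2, Ndufc2 and Ndufa8 were named after their values were seen. The genes of the chain, the other lists and the motifs were chosen with earlier results of these data known. The values of 1 core gene of the naming rule are not reported here.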

Additional observations from a re-analysis of the deposited data

Results flagged for a closer look

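A library standing far from the other 4 of its group was found in 17 of 160 groups of values tested, where chance gives about 1 in 20, and 10 of the 17 fell on 2 libraries. In 6-3-A6 input 5, the mean log2 CPM of complex IV was 6.69 (others 5.49 to 5.81) and that of complex V 6.67 (others 5.78 to 6.01). In the same library Atp5e was at 6.72 (4.62 to 5.17), Ndufs5 at 2.96 (1.72 to 2.03), Cox5a at 6.36 (4.68 to 4.97), Cox6a1 at 7.06 (5.38 to 5.76) and Cox7a2 at 7.02 (5.97 to 6.20), all in log2 CPM. In 6-3-A6 input 4, Ndufa4 was high at 8.44 (5.33 to 6.20), while Ndufv1 at 4.46 (5.61 to 5.83) and Atp5b at 8.27 (9.02 to 9.22) were low.

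The other 7 values were spread over the remaining libraries. Cox7a2l at 5.92 (6.64 to 6.88) and Uqcrh at 6.55 (7.08 to 7.26) were low in 6-3-A6 IP 2, Cox7a1 was low in control IgG input 4 at −0.82 (0.01 to 0.18) and high in 6-3-A6 IP 1 at −0.013 (−1.27 to −1.15). Uqcrc1 was low in control IgG IP 4 at 6.04 (6.43 to 6.59), Atp5o low in control IgG IP 5 at 1.69 (2.29 to 2.47) and Ndufb4 high in control IgG IP 1 at 3.35 (2.02 to 2.40). What set these libraries apart was not tested.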

How the results depend on the processing

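The respiratory chain genes had a median below 0 in IP against input in every setting tried. That comparison called 44.4% of all genes with DESeq2, 41.1% with its size factors, 40% with library totals and 43% with the upper quartile. It called 17.9% without a filter, 52.4% with the block and 24.4% in the kept tumors. Within control IgG the shares were 15.5% with DESeq2, 12.3% with the upper quartile and 4.13% in the kept tumors. Within 6-3-A6 they were 24.9% with library totals, 29.2% with the upper quartile, 10.6% without a filter and 21.6% in the kept tumors. With the tumor as a replicate block 33 genes were lower, with 2 higher in complex I and 1 lower in II, 9 in IV and 8 in V, and 10 were lower in control IgG. The number block across treatments gave 0 calls in input and all IP and could not be fitted for the kept IP libraries. With DESeq2, 2 were higher in complex I and 1 in V, 5 lower in IV, 2 lower in control IgG, and Sdhb stood at 0.00409. Its size factors in edgeR gave 1 higher in V and Sdhb at 0.00393. With library totals alone 7 were higher and 12 lower (complex I 3 higher, III 0 lower, IV 1 lower, V 1 higher and 2 lower), 5 were lower within 6-3-A6, and Sdhb stood at 0.17, Uqcrfs1 at 0.030 and Cox6a1 at 0.14. With the upper quartile 1 was higher in III, 6 lower in IV and 9 in V, 30 lower in all, 2 lower in control IgG and 2 higher within 6-3-A6, with Ndufa4l2 at −0.013. Without a filter 0 were lower in III, 3 in V and 8 within 6-3-A6, with Sdhb at 0.066 and Cox6a1 at 0.041. In the tumors kept by the study 2 were higher and 13 lower (III 0 higher, IV 1 and V 2 lower), 0 were higher in control IgG, 1 higher and 5 lower within 6-3-A6, Cox6a1 stood at 0.034 and the interaction median at 0.37. Genes overlapped under 10% gave 0 higher in complex I.

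Without 6-3-A6 inputs 4 and 5, left out after seeing the data, complex I had 2 higher and III 0 lower, 2 were higher and 1 lower within 6-3-A6, and Sdhb was at 0.069, Cox6a1 at 0.12 and Ndufa4l2 at −0.039. Of all genes 42.3% were called over both treatments and 22.1% within 6-3-A6. In input Uqcrb was at −0.17 and Ndufa4 at −0.36, and in the interaction Ndufa4 was at 0.065 and Ndufb4 at 0.21. In the kept IP libraries the endothelial score as a covariate gave medians of 0.76 over all, 0.71 in I, 0.78 in III, 1.11 in IV and 0.73 in V with 0 calls. There voom weights gave 2 higher, both in complex I, with 13.4% of all genes called. The cause of these changes was not tested.

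Leaving out 1 tumor gave 1 to 2 higher in complex I, 1 to 2 higher and 0 to 1 lower in III, 2 to 5 lower in IV, and 0 to 1 higher and 3 to 9 lower in V. Within control IgG it gave 0 to 2 higher and 0 to 1 lower, and within 6-3-A6 2 to 5 higher and 6 to 16 lower. Cox6a1 ran from −0.15 to 0.15, Ndufa4l2 from −0.029 to 0.24, Sdhb from −0.064 to 0.068 and Ndufa4 in input from −0.18 (without 6-3-A6 tumor 4) to 1.08. Genes under 1 CPM, such as Cox7a1, rest on few reads per library.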
